A study of Danio rerio with 16 samples.

Results

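Whole zebrafish embryos lacking gfi1aa were compared with wild type embryos at 15 h post fertilization (hpf), by RNA sequencing across all genes. The comparison holds 4 of the 16 libraries of the series, 2 of gfi1aa-/- and 2 of WT, taken by their labels, and all 16 libraries enter the estimate of the spread between replicates. The gfi1aa-/- embryos carried the mutant allele smu10 on both chromosomes, came from crosses between heterozygous fish and were picked by genotyping, with gfi1b and gfi1ab intact. The WT embryos, described as siblings, had all 3 genes intact, but which of the crosses they came from was not given. The other 12 libraries, used here for the spread and as other backgrounds, are of gfi1aa/1b DM (gfi1aa-/- with gfi1b-/-) and gfi1b-/-, of gfi1aa/1ab DM (gfi1aa-/- with gfi1ab-/-) and gfi1ab-/-, and of gfi1 TM, which lacks all 3 genes, and gfi1b/1ab DM (gfi1b-/- with gfi1ab-/-). As the study writes it, gfi1b-/- and gfi1ab-/- came from crosses of heterozygous fish. The parents of gfi1aa/1b DM and gfi1aa/1ab DM were heterozygous for gfi1aa and mutant for the second gene. Those of gfi1 TM were mutant for gfi1aa and gfi1b and heterozygous for gfi1ab, and the cross of gfi1b/1ab DM was not given. How many embryos went into a library, and which libraries share a clutch or a day, was not given, so p-values measure the spread between these libraries, and differences between clutches or fish lines cannot be told apart from the genotype. No transgene, sorting or drug was used, and every tissue of the embryo is in each library.

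Gfi1 proteins are nuclear repressors. A short SNAG domain at the N terminus recruits the histone demethylase Lsd1 and its partners, and zinc fingers at the C terminus bind DNA, so that genes near the bound sites are kept low. In zebrafish, gfi1aa is known for its role in the first wave of red blood cells, and vertebrate Gfi1 also acts in the hair cells of the inner ear and in white blood cells. At the stage sampled the embryo is still forming somites, the paired blocks of mesoderm that give the trunk muscle, and the hatching gland, the skin with its ion-transporting cells and the syncytial layer around the yolk are already present.

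Reads counted on genes came to 19022917 and 22524501 in the gfi1aa-/- libraries and 19673394 and 20541651 in the WT libraries, and the 16 libraries ranged from 15657371 to 22524501. The log2 values of replicates differed with an SD of 0.35 in gfi1aa-/- and 0.43 in WT, against 0.60 in gfi1 TM, the widest. The targeted transcript was still made: gfi1aa had 7.0 and 8.88 CPM, the count as a share of the library's total, in gfi1aa-/- and 10.7 and 10.9 CPM in WT, a log2 fold change of -0.44 ± 0.16 (SE, adjusted p = 0.094) that did not pass the threshold of 0.05. The level of the mutant mRNA does not check the labels by itself. Neither gfi1ab, with 2.2 and 1.69 CPM against 1.85 and 2.1 CPM, nor gfi1b, with 3.12 and 3.64 CPM against 3.45 and 2.57 CPM, passed the test. The study reported less gfi1b and ectopic gfi1ab in mutants lacking gfi1aa, and for gfi1ab it describes staining where primitive blood forms. Counts from whole embryos are a different measure from staining in 1 region. Genes of muscle, somites, skin, hatching gland, nervous system, yolk and blood were all above the filter on low counts, as whole embryos would give.

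Of 19903 genes tested with edgeR's quasi-likelihood method, 1287 were higher (6.47%) and 1126 lower (5.66%) in gfi1aa-/- than in WT at a Benjamini-Hochberg adjusted p under 0.05. The median log2 fold change was 1.11 in size among the higher genes and 0.85 among the lower ones, and the median over all tested genes was close to 0. In all 1287 higher genes and 1125 of the lower genes the libraries of the 2 groups did not overlap. Each library carried weight in these counts: without gfi1aa-/- replicate 1 there were 722 higher and 578 lower genes, and without gfi1aa-/- replicate 2 there were 661 and 507. Without WT replicate 1 there were 852 higher and 728 lower genes, and without WT replicate 2 there were 655 and 660. The 7 erythroid genes that the study names were all lower, with log2 fold changes of -4.71 to -1.18, and its 6 endothelial genes were all higher, by 0.31 to 0.72. Of the 6 endothelial calls 2, 1, 3 and 3 held without gfi1aa-/- replicate 1, gfi1aa-/- replicate 2, WT replicate 1 and WT replicate 2, and that of clec14a under each of these, while 6 of the 7 erythroid calls held each time. The study reported these genes from these same libraries, so here they are not independent evidence of a direction. Apart from the sequencing, it also stained mutant embryos for gata1, alas2, flk1, etv2 and sox7. For etv2 and sox7 it added quantitative PCR, reporter assays in embryos, and chromatin immunoprecipitation of Gfi1aa and of the histone mark H3K4me1. The other genes and tissues are described from here on. In whole embryos, fewer cells of a type and less RNA per cell cannot be told apart.

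**Figure D1:**
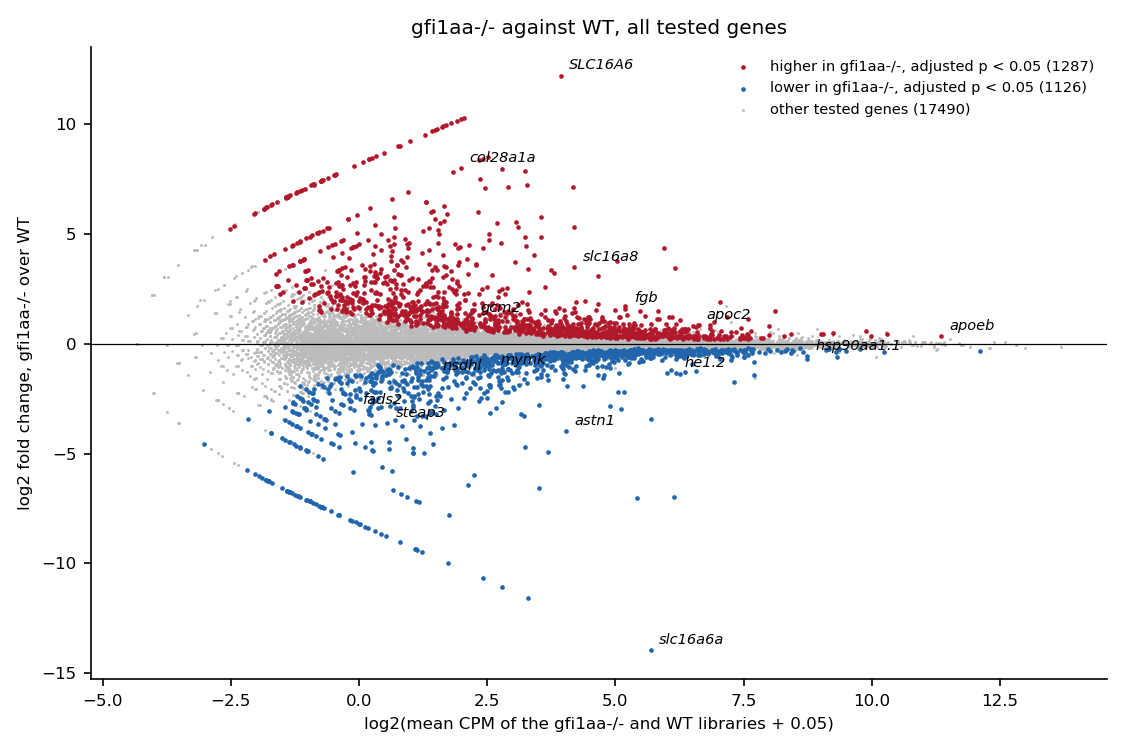
Log2 fold change of gfi1aa-/- over WT (vertical axis) against the mean level of each tested gene in these 4 libraries (horizontal axis, log2 of CPM + 0.05). Red points are the 1287 genes higher in gfi1aa-/-, blue points the 1126 lower genes and grey points the rest. The points along slanting lines at both edges are genes with no counts in 1 group, whose fold changes depend on the prior count.

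Both gfi1aa-/- libraries lay beyond all 8 libraries with gfi1aa intact in 616 of the 1287 higher genes (47.9%) and 586 of the 1126 lower genes (52.0%). Called or not, and in either direction, the same pattern held for 17% of all tested genes. Genes that were both called and beyond the 8 libraries made up 3.10% (higher) and 2.94% (lower) of all tested genes. Both WT libraries lay beyond the other 14 libraries in 440 of the higher genes (34.2%) and 343 of the lower genes (30.5%), against 9.11% of all tested genes. Examples of the second kind were clstn2, which encodes a calsyntenin of the synapse, with 5.47 and 4.16 CPM in gfi1aa-/- and 0.050 and 0.048 CPM in WT but 3.33 to 6.66 CPM in the 6 other libraries with gfi1aa intact, and astn1, a neuronal adhesion gene, with 1.28 and 2.55 CPM in gfi1aa-/- and 29.6 and 32.0 CPM in WT but 2.88 to 7.53 CPM in those 6. For both genes the WT libraries were the ones apart from all others. The range in the 6 libraries of gfi1b-/-, gfi1ab-/- and gfi1b/1ab DM, called the other intact libraries, is therefore given beside the main results.

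Called members of the sarcomere and myogenic lists were all lower in gfi1aa-/-. Outside these lists the smooth muscle actin acta2, the myosin light chain kinase mylka and the muscle enolase eno3 were higher. For eno3, gfi1aa-/- had 40.1 to 41.0 CPM and WT 24.0 to 26.8 CPM, but the other intact libraries had 30.6 to 43.6 CPM. The levels of acta2 and mylka are given further on. Of 46 tested genes of the sarcomere and contraction, 13 were lower (28.3%) and 0 higher, where edgeR gave 16 lower and 2 higher at an unadjusted p under 0.05 and DESeq2 on all libraries gave 13 lower and 0 higher. The median log2 fold change of the list was -0.26. hsp90aa1.1, the chaperone that folds myosin in skeletal muscle, had 330.3 and 359 CPM in gfi1aa-/- and 495 and 525 CPM in WT, a log2 fold change of -0.57 ± 0.07 (adjusted p = 1.756e-04). Its partners in myosin folding moved the same way: unc45b had 155 and 162 CPM against 195 and 212 CPM (adjusted p = 0.0056), and smyd1b had 70.7 and 75.3 CPM against 101 and 96.3 CPM (adjusted p = 0.0027). For these 3 genes both gfi1aa-/- libraries were also below the other intact libraries, whose lowest values were 439.6, 185 and 81.6 CPM. Among structural genes, the skeletal actin acta1b had 42.9 and 42.0 CPM in gfi1aa-/- and 63.1 and 62.5 CPM in WT. The intermediate filament gene desma had 57.9 and 64.2 CPM against 82.6 and 83.8 CPM. The fast myosin light chain mylpfa was at 5.88 and 6.06 CPM against 10.3 and 9.24 CPM, the largest fall of these 3 with a log2 fold change of -0.71 ± 0.15. In slow muscle, smyhc1, a slow myosin heavy chain, had 629 and 639 CPM against 829 and 778 CPM, but 593 to 694 CPM in the other intact libraries, so there the WT libraries were high. Without gfi1aa-/- replicate 1 only 3 of the 13 calls held, and 8, 7 and 9 held without gfi1aa-/- replicate 2, WT replicate 1 and WT replicate 2. The calls of hsp90aa1.1 and smyd1b were kept whichever of these 4 libraries was left out.

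The 24 tested regulators of myogenesis gave 3 lower genes (12.5%) and 0 higher, where 6 lower and 3 higher ones had an unadjusted p under 0.05. mymk encodes myomaker, the membrane protein that fuses myoblasts, and had 2.91 and 4.37 CPM in gfi1aa-/- and 8.84 and 8.0 CPM in WT, against 8.50 to 12.7 CPM in the other intact libraries (log2 fold change -1.19 ± 0.24, adjusted p = 0.0042). myf6, a myogenic factor of differentiating fibres, had 1.48 and 1.34 CPM against 3.0 and 4.1 CPM, with the other intact libraries at 1.31 to 2.34 CPM. mef2d, a cofactor of the myogenic factors, had 119 and 112 CPM against 151 and 159 CPM. The determination factors did not pass: myod1 had 73.5 and 46.5 CPM in gfi1aa-/- and 85.1 and 73.7 CPM in WT, and myf5 had 62.2 and 57.5 CPM against 67.4 and 73.8 CPM. Calls of 2, 1, 3 and 1 of the 3 genes held without gfi1aa-/- replicate 1, gfi1aa-/- replicate 2, WT replicate 1 and WT replicate 2.

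The presomitic mesoderm, from which somites are cut by an oscillating clock, showed small falls. Of 28 tested genes, 7 were lower (25%) and 0 higher, 25 had a log2 fold change below 0, and the median was -0.20. pcdh8, a protocadherin of the forming somite, had 95.1 and 93.4 CPM in gfi1aa-/- and 124 and 136 CPM in WT, with 95.5 to 120 CPM in the other intact libraries (log2 fold change -0.46 ± 0.08, adjusted p = 0.0015). tbx6, a T-box factor of the presomitic mesoderm, had 169 and 145 CPM against 212 and 236 CPM. The clock genes her1, with 39.7 and 33.7 CPM against 45.9 and 54.5 CPM, and her7, with 15.18 and 10.6 CPM against 19.1 and 22.0 CPM, were lower than in WT but overlapped the other intact libraries. The brachyury genes of the notochord and tailbud, tbxta with 76.9 and 71.2 CPM against 90.5 and 91.7 CPM and tbxtb with 11 and 10.4 CPM against 14.3 and 16.9 CPM, were the 2 lower genes among 19 tested of the notochord and floor plate, and both overlapped the other intact libraries. The call of pcdh8 was the only one of the 7 kept whichever library was left out, and 4, 1, 6 and 1 of them held without gfi1aa-/- replicate 1, gfi1aa-/- replicate 2, WT replicate 1 and WT replicate 2.

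Cell division genes that passed the test were all lower in gfi1aa-/-. Of 44 mitosis genes 7 were lower (15.9%, against 5.66% of all tested genes) and 0 higher. In this list 41 genes had a log2 fold change below 0, and the median was -0.13. kif20a, a kinesin of the dividing cell's midzone, had 92.2 and 93.2 CPM in gfi1aa-/- and 117 and 122 CPM in WT, and bub1, a kinase of the spindle checkpoint, had 166 and 155 CPM against 205 and 215 CPM. Both also lay below the other intact libraries, which were at 98.0 to 118 CPM for kif20a and 175 to 202 CPM for bub1. These were the calls that held whichever library was left out, while 2, 5, 4 and 3 of the 7 held without gfi1aa-/- replicate 1, gfi1aa-/- replicate 2, WT replicate 1 and WT replicate 2. Of 49 genes of DNA replication 2 were lower (4.08%), close to the share of all genes, among them mcm2, a subunit of the replicative helicase, with 527 and 531 CPM against 614 and 636 CPM, a call that was lost whichever of the 4 libraries was left out.

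Ionocytes, the mitochondria-rich skin cells that exchange ions with the water, had the highest share of higher genes among the lists other than the endothelial genes that the study names. Of 11 tested genes 4 were higher (36.4%) and 0 lower, and in all 4 both gfi1aa-/- libraries lay above the 8 libraries with gfi1aa intact. gcm2, the factor that makes the acid-secreting ionocytes, had 6.39 and 6.15 CPM in gfi1aa-/- and 2.85 and 2.81 CPM in WT, with 2.94 to 4.39 CPM in the other intact libraries (log2 fold change 1.15 ± 0.19, adjusted p = 0.0013). atp1b1b, a sodium pump subunit of ionocytes, had 10.9 and 11.6 CPM against 6.89 and 5.62 CPM. The forkhead factors that specify these cells followed: foxi3a had 14.1 and 13.2 CPM against 9.54 and 9.67 CPM, and foxi3b had 10 and 9.92 CPM against 6.89 and 6.05 CPM. The call of gcm2 was kept whichever library was left out, and 2, 2, 2 and 1 of the 4 calls held without gfi1aa-/- replicate 1, gfi1aa-/- replicate 2, WT replicate 1 and WT replicate 2.

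In the rest of the skin 34 genes were tested, of which 6 were higher (17.6%) and 2 lower (5.88%), with a median close to 0. krt94, a type I keratin, had 10.3 and 11.6 CPM in gfi1aa-/- and 5.0 and 2.81 CPM in WT, above all other intact libraries at 1.36 to 3.16 CPM. krt18a.1, a keratin of simple epithelia, had 1081 and 1202 CPM against 896 and 622 CPM, inside the range of the other intact libraries. tp63, the master factor of the basal epidermis, had 120 and 114 CPM against 90.4 and 91.0 CPM, with up to 116 CPM in the other intact libraries. icn, an S100-type calcium-binding gene of skin, went the other way at 12.4 and 16.1 CPM against 32.5 and 24.6 CPM. None of the 8 calls was kept under every left-out library: of the 6 higher genes 3, 2, 2 and 0 held without gfi1aa-/- replicate 1, gfi1aa-/- replicate 2, WT replicate 1 and WT replicate 2, and of the 2 lower genes 0, 1, 0 and 1 held.

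**Figure D2:**
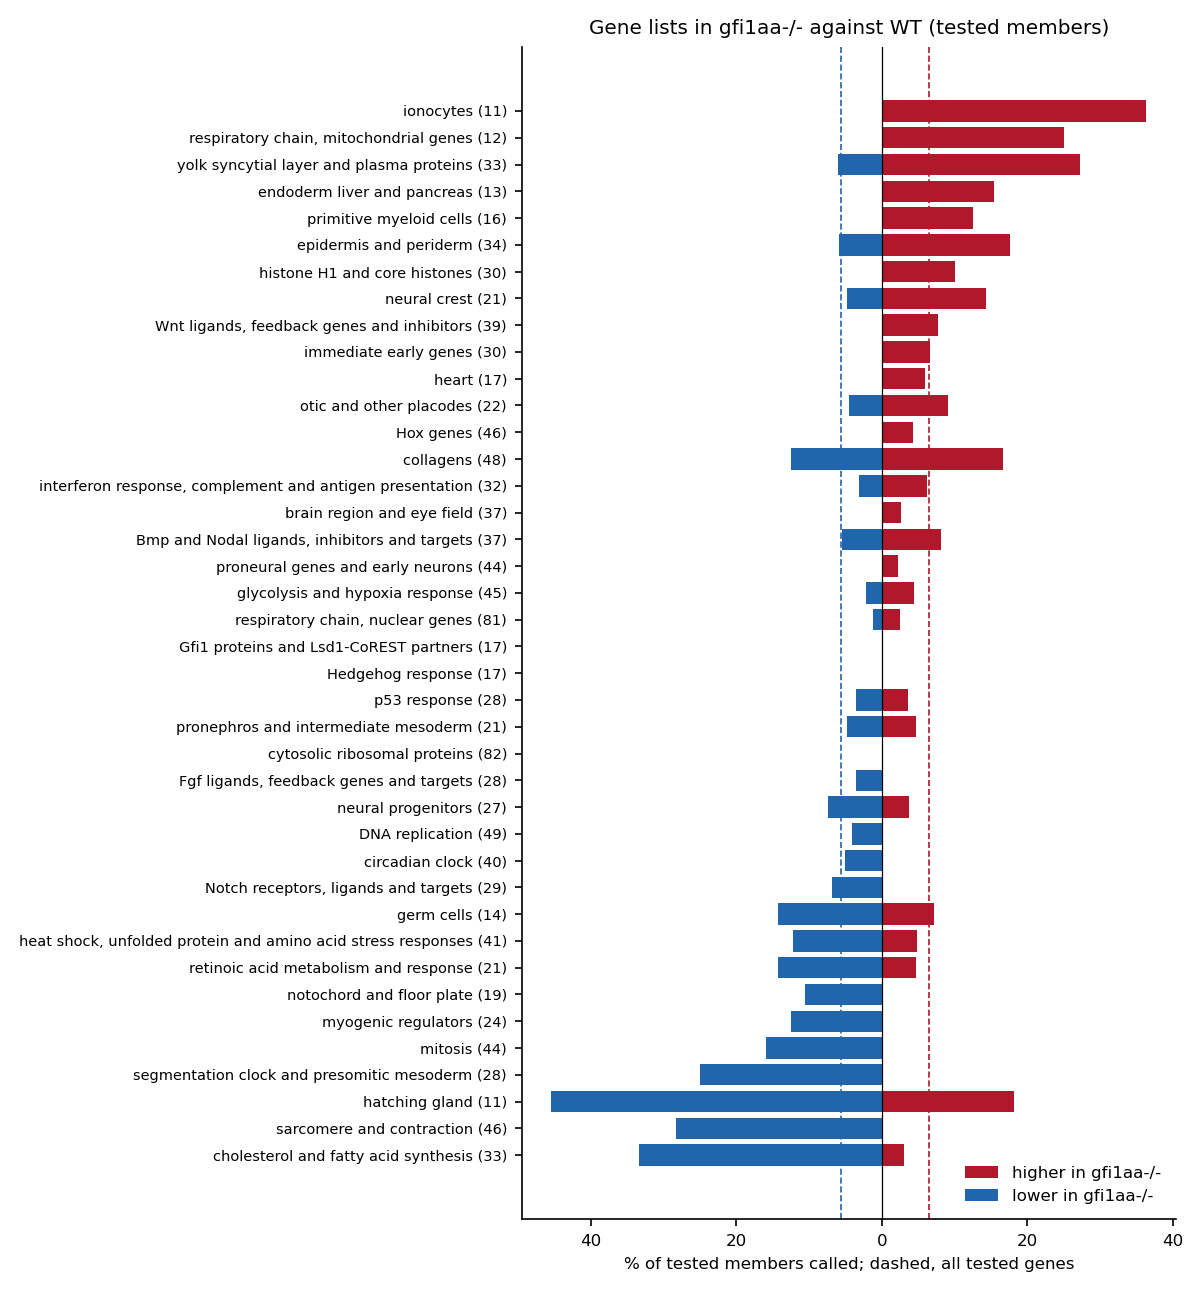
Share of the tested members of each gene list that were higher (red, to the right) or lower (blue, to the left) in gfi1aa-/- than in WT. The dashed lines mark the shares among all tested genes, 6.47% higher and 5.66% lower. Numbers beside the names are tested members, and the genes the study names are not drawn. Ionocytes reach 36.4% on the right, and the hatching gland 45.5%, synthesis of cholesterol and fatty acids 33.3% and the sarcomere 28.3% on the left.

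The hatching gland secretes the proteases that open the egg shell. Its list covers 11 gene IDs, of which 2 were higher (18.2%) and 5 lower (45.5%), against 6.47% and 5.66% of all tested genes. Of the gene IDs called, 3 share the symbol ctslb. The lower gene agr2 had 2.56 and 3.51 CPM in gfi1aa-/- and 5.05 and 6.33 CPM in WT, but 3.02 to 8.26 CPM in the other intact libraries. It was higher in gfi1aa/1b DM over gfi1b-/- (0.96), and its call was lost without gfi1aa-/- replicate 1 or WT replicate 2. klf17, the factor that specifies the gland, had 32.6 and 32.2 CPM in gfi1aa-/- and 45.0 and 51.1 CPM in WT, below all 8 libraries with gfi1aa intact (log2 fold change -0.57 ± 0.09, adjusted p = 9.539e-04). The hatching enzyme he1.2 had 40.7 and 41.9 CPM against 92.4 and 114 CPM, a log2 fold change of -1.32 ± 0.13 (adjusted p = 1.424e-05), but the other intact libraries ranged from 15.9 to 68.4 CPM and against the mean of the 4 intact genotypes the log2 fold change was 0.11. In the other backgrounds described further on it was lower in gfi1aa/1b DM (-1.71) and higher in gfi1 TM (2.12). Its neighbour in function he1.1 had 360 and 395 CPM against 421 and 366 CPM and did not pass, with a sign that turned without gfi1aa-/- replicate 1 (0.0010) or WT replicate 1 (0.046). Cathepsin Lb, a protease made by the gland, is split over 3 gene IDs with the symbol ctslb, and reads cannot be divided between near-identical copies with certainty. ENSDARG00000039173 had 62.5 and 62.8 CPM against 131 and 104 CPM, ENSDARG00000074306 had 2.81 and 2.94 CPM against 21.7 and 18.1 CPM, and ENSDARG00000095072 had 0.665 and 0.693 CPM against 0.050 and 0 CPM. Added up over these 3 gene IDs, ctslb came to 66.0 and 66.4 CPM in gfi1aa-/- and 152 and 122 CPM in WT. The sums in the other intact libraries were 146 to 169 CPM. Genes under other symbols were not added, so the total of related cathepsin genes was not measured. The 4 calls of klf17, he1.2 and the 2 lower ctslb copies were kept whichever library was left out. Those of the 2 higher genes were not: the protease prss59.1 and the small ctslb copy kept 1, 1, 1 and 0 calls without gfi1aa-/- replicate 1, gfi1aa-/- replicate 2, WT replicate 1 and WT replicate 2.

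Enzymes of cholesterol and fatty acid synthesis were lower. Of 33 tested genes 11 were lower (33.3%) and 1 higher, and the median log2 fold change was -0.23. At the head of the pathway, srebf2, the transcription factor that turns on the cholesterol genes when sterols are low, had 106 and 94.5 CPM in gfi1aa-/- and 153 and 144 CPM in WT, with 137 to 146 CPM in the other intact libraries (log2 fold change -0.57 ± 0.13, adjusted p = 0.0080). insig1, the sterol-sensing protein that holds Srebp back, had 8.90 and 10.22 CPM against 18.7 and 12.2 CPM. The late enzymes that turn lanosterol into cholesterol included cyp51, the lanosterol demethylase, with 3.22 and 3.90 CPM against 8.84 and 6.91 CPM and 9.37 to 11.5 CPM in the other intact libraries. nsdhl, a sterol dehydrogenase, had 1.12 and 1.73 CPM against 4.30 and 3.71 CPM, and hsd17b7, a sterol ketone reductase, had 3.48 and 4.46 CPM against 8.39 and 6.38 CPM. lss, which makes lanosterol, had 1.07 and 1.08 CPM against 2.45 and 2.0 CPM. fads2, a desaturase of long fatty acids, had 0.204 and 0.173 CPM against 2.05 and 1.1 CPM, the largest fall of the list (log2 fold change -3.02 ± 0.53, adjusted p = 0.0017). fdps, which makes farnesyl diphosphate, was the higher gene, with 142 and 141 CPM against 108 and 81.5 CPM, and its call held only without WT replicate 1. Members that did not pass included the early enzymes hmgcs1, with 37.3 and 36.8 CPM against 31.0 and 27.8 CPM, and idi1, with 78.8 and 81.7 CPM against 96.6 and 82.3 CPM. Most enzymes called were at low levels, and WT replicate 2 was nearer to gfi1aa-/- than WT replicate 1 in several: 3, 4, 2 and 9 of the 11 calls held without gfi1aa-/- replicate 1, gfi1aa-/- replicate 2, WT replicate 1 and WT replicate 2. fads2 was the gene called under each of these.

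More genes for plasma and yolk proteins were higher than lower. The yolk syncytial layer and the future liver make the apolipoproteins that carry yolk fat. Of 33 such genes 9 were higher (27.3%) and 2 lower (6.06%), against 6.47% and 5.66% of all tested genes, and the median was 0.30. In 4 of the 9 both gfi1aa-/- libraries lay above the 8 libraries with gfi1aa intact. apoc2, the cofactor of lipoprotein lipase, had 118 and 135 CPM in gfi1aa-/- and 69.2 and 69.8 CPM in WT, above the other intact libraries at 60.0 to 86.7 CPM (log2 fold change 0.86 ± 0.12, adjusted p = 4.131e-04). apobb.2, a main protein of the fat particles, had 86.5 and 97.7 CPM against 46.9 and 31.3 CPM, though 39.6 to 99.8 CPM in the other intact libraries. The fibrinogen chains fgb, with 53.1 and 57.0 CPM against 25.5 and 10.9 CPM, and fgg, with 26.7 and 29.6 CPM against 18.4 and 10.9 CPM, moved the same way. For fgb the gfi1aa-/- libraries were above all intact ones, of which the highest had 39.1 CPM, while for fgg the other intact libraries reached 28.9 CPM and overlapped gfi1aa-/-. apoeb, one of the most abundant transcripts of this list, had 2881 and 2926 CPM against 2392 and 2204 CPM. fabp1b.2, a fatty acid binding protein, was lower, with 0.051 and 0.390 CPM against 1.90 and 2.05 CPM. The apolipoprotein gene apoa4b.1 was also lower, at 139 to 154 CPM against 192 to 245 CPM, with 127 to 154 CPM in gfi1b-/-. Complement, a protein cascade of the plasma, was listed with interferon and antigen presentation. Of the 32 tested genes of that list 2 were higher (6.25%), close to the 6.47% of all tested genes, and both are complement genes. c3b.1 had 38.4 and 39.4 CPM against 15.09 and 7.43 CPM, but 12.5 to 43.7 CPM in the other intact libraries, a range that holds both gfi1aa-/- values. c3a.3 had 4.45 and 4.63 CPM against 0.899 and 0.619 CPM, and 0.244 to 3.69 CPM in the other intact libraries. The calls of apoc2, apobb.2, apoea, rbp4, fgb, 1 of the gene IDs named apoa4b.2, c3b.1 and c3a.3 were kept whichever library was left out. Of the 9 higher genes 6, 6, 8 and 6 held without gfi1aa-/- replicate 1, gfi1aa-/- replicate 2, WT replicate 1 and WT replicate 2, and of the 2 lower genes 0, 2, 1 and 2.

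Collagens, which form the matrix between tissues, moved in both directions. Of 48 tested genes 8 were higher (16.7%) and 6 lower (12.5%). The 3 chains of collagen VI, the beaded filament around muscle and other cells, were all lower. col6a3 had 1.28 and 1.91 CPM in gfi1aa-/- and 5.65 and 5.91 CPM in WT (log2 fold change -1.84 ± 0.28, adjusted p = 5.968e-04). col6a1 had 9.20 and 6.37 CPM against 18.7 and 12 CPM, and col6a2 had 7.46 and 6.19 CPM against 10.24 and 11.3 CPM. In each the gfi1aa-/- libraries were below the other intact ones, which had at least 4.24, 16 and 10.24 CPM. On the other side, col7a1, the anchoring fibril of the epidermis, had 97.6 and 101 CPM against 69.4 and 63.5 CPM, and at most 81.8 CPM in the other intact libraries. col16a1 had 35.2 and 32.4 CPM against 18.6 and 16.1 CPM, but up to 42.7 CPM in the other intact libraries. Calls of col6a3, col5a2a, col28a1a, col16a1, col7a1 and col12a1a were kept whichever library was left out. Of the 6 lower genes 5, 2, 3 and 4, and of the 8 higher genes 4, 5, 6 and 4, held without gfi1aa-/- replicate 1, gfi1aa-/- replicate 2, WT replicate 1 and WT replicate 2.

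**Figure D3:**
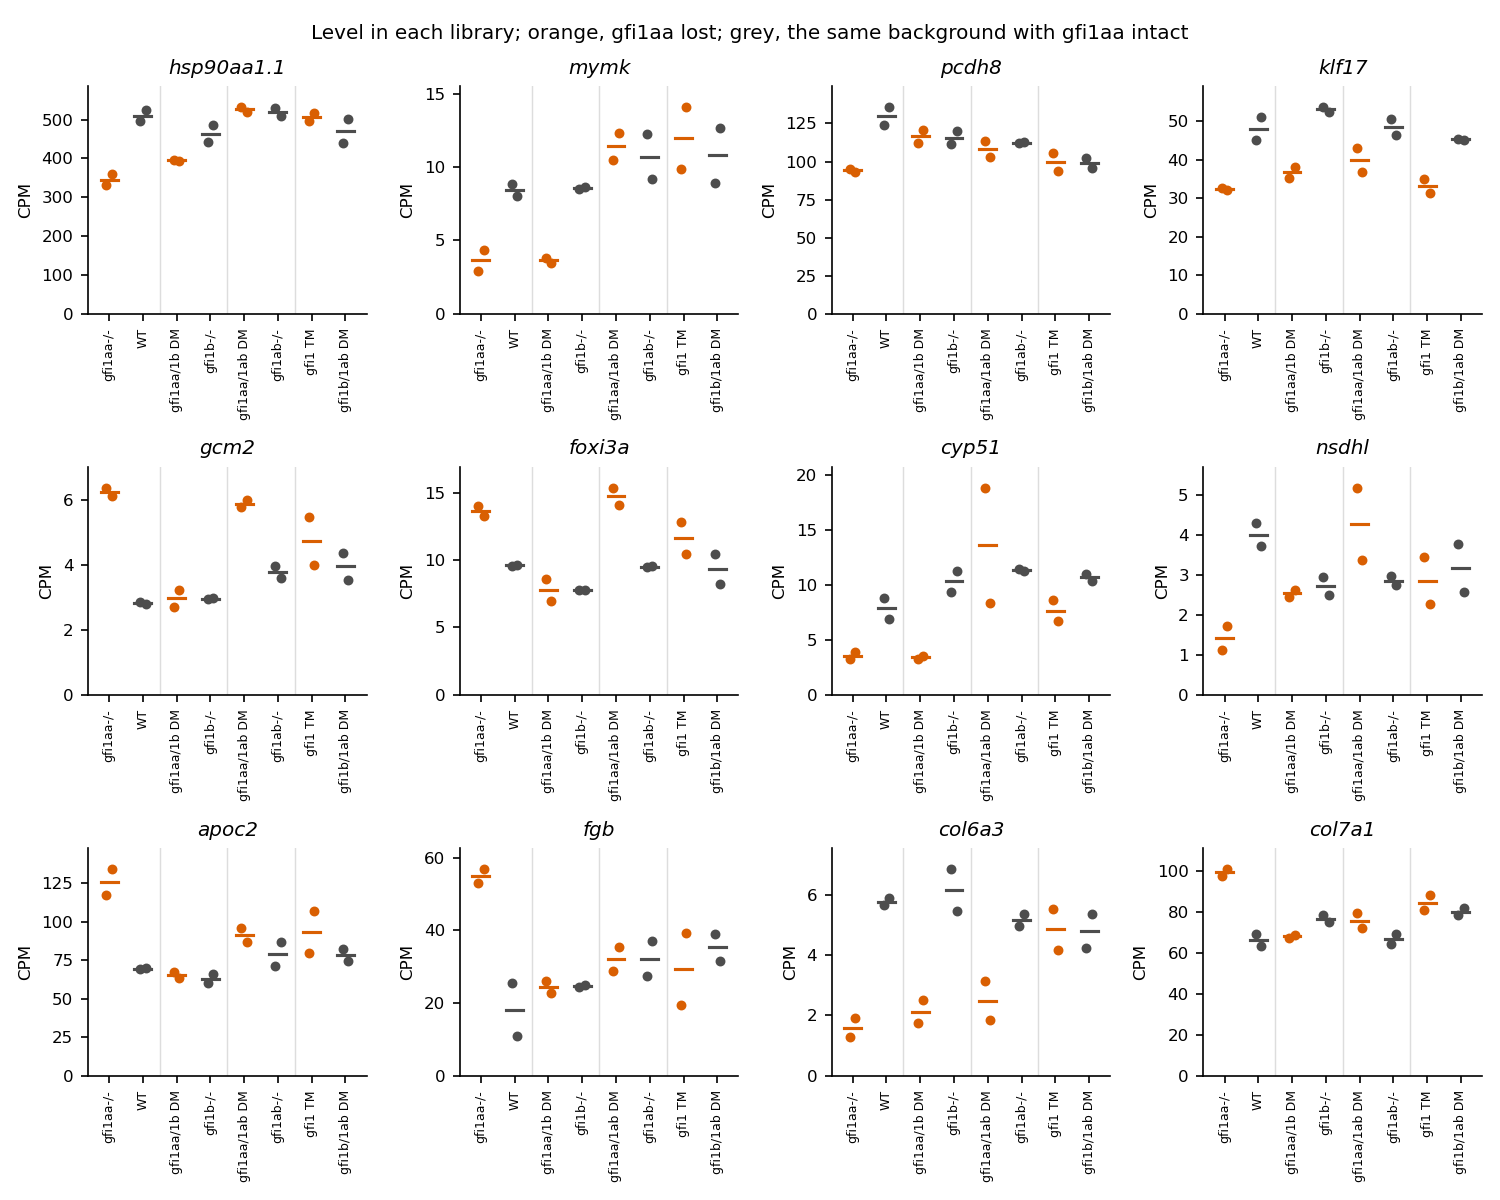
Level in CPM (vertical axes, from 0) of 12 genes in each of the 16 libraries. Points are libraries and lines are means of the 2 libraries, and each genotype without gfi1aa (orange) stands left of the same background with gfi1aa intact (grey). In gcm2 the gfi1aa-/- libraries, at 6.39 and 6.15 CPM, lie above the WT libraries at 2.85 and 2.81 CPM, and in cyp51 they lie at 3.22 and 3.90 CPM, below WT at 8.84 and 6.91 CPM.

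The nervous system gave few calls, except that 14.3% of the neural crest list were higher, against 6.47% of all tested genes. Of 44 proneural and early neuronal genes 1 was higher (2.27%) and 0 lower, where 5 higher and 1 lower had an unadjusted p under 0.05. The gene was isl2a, a LIM homeobox factor of motor and sensory neurons, with 38.2 and 35.9 CPM in gfi1aa-/- and 24.0 and 27.9 CPM in WT, above the other intact libraries at 28.4 to 33.0 CPM, and it was called whichever library was left out. Of 37 genes of brain regions and the eye field 1 was higher (2.7%), and of 27 neural progenitor genes 1 was higher and 2 lower. In the neural crest list 3 of 21 were higher, tfap2a, tfap2c and id3, by log2 fold changes of 0.22 to 0.25, and 1 was lower. None of these 4 calls held when any 1 of the 4 libraries was left out. In the inner ear, oc90, a protein of the ear stones, had 164 and 155 CPM against 112 and 101 CPM. stm, starmaker, the protein that shapes the ear stones, went the other way with 105 and 108 CPM against 131 and 169 CPM, and both genes lay outside the range of all 8 libraries with gfi1aa intact. dlx5a, a homeobox factor of placodes and fin folds, had 19 and 18.2 CPM against 12.3 and 11.5 CPM, and its call was kept whichever library was left out, unlike those of oc90 and stm. In oc90 it was lost without each of the 4 libraries, and in stm without gfi1aa-/- replicate 1 and WT replicate 2.

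The heart and pronephros lists gave no larger shares of calls than all tested genes, 6.47% higher and 5.66% lower. gata3, a factor of the pronephric duct, ear and skin, had 86.2 and 82.6 CPM in gfi1aa-/- and 58.8 and 57.3 CPM in WT, above the other intact libraries at 66.8 to 74.8 CPM (log2 fold change 0.54 ± 0.09, adjusted p = 0.0013), and it was called whichever library was left out. It was the 1 higher gene among 21 of the pronephros and intermediate mesoderm, where 1 was lower. The heart list had 1 higher gene of 17, hand2, with 23.8 and 24.5 CPM against 19.3 and 19.4 CPM, a call lost whichever of the 4 libraries was left out. Of 14 germ cell genes 1 was higher (7.14%) and 2 were lower (14.3%). Of the lower genes, tdrd6, a Tudor protein of germ granules, had 1.02 and 0.866 CPM against 4.1 and 5.71 CPM (log2 fold change -2.38 ± 0.31). The other, piwil1, which binds piRNAs, had 2.10 and 1.99 CPM against 4.05 and 4.52 CPM. For tdrd6 the other intact libraries were at 1.35 to 2.68 CPM, and both WT libraries lay above the other 14 libraries of the series. The call of piwil1 held only without WT replicate 1. Of 16 genes of primitive white blood cells 2 were higher (12.5%). These were cebpb, with 42.7 and 45.8 CPM against 29.7 and 31.5 CPM, and mmp9, with 6.44 and 7.45 CPM against 4.30 and 4.62 CPM. For mmp9 the other intact libraries were at 5.36 to 7.51 CPM, around the gfi1aa-/- values, and both WT libraries lay below the other 14. The calls of cebpb and mmp9 were lost without gfi1aa-/- replicate 2 and without WT replicate 1.

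For the lists of signals, stress and growth, the shares among all tested genes are 6.47% higher and 5.66% lower. Of 39 Wnt genes 3 were higher (7.69%), and of 37 Bmp and Nodal genes 3 were higher (8.11%) and 2 lower (5.41%). Of 28 Fgf genes 1 was lower (3.57%), and of 29 Notch genes 2 were lower (6.9%). Of 17 Hedgehog genes 0 passed, with 4 at an unadjusted p under 0.05. In the retinoic acid list 1 of 21 was higher (4.76%) and 3 were lower (14.3%). Of the lower genes, crabp2b, a retinoic acid carrier, had 80.9 and 84.5 CPM in gfi1aa-/- and 119 and 116 CPM in WT. Its gfi1aa-/- values were below the other intact libraries at 91.4 to 105 CPM (log2 fold change -0.51 ± 0.07, adjusted p = 1.472e-04). Its call and that of nr2f5 were kept whichever library was left out. Of 82 cytosolic ribosomal protein genes 0 passed, with 2 at an unadjusted p under 0.05. Of 28 p53 genes 1 was higher (3.57%) and 1 lower (3.57%). Of 17 genes for Gfi1 proteins and Lsd1 partners 0 passed, with 3 lower at an unadjusted p under 0.05. The circadian list had 2 lower genes of 40 (5%). cry5, a light-induced photolyase-like gene, had 3.37 and 4.37 CPM against 8.69 and 10.6 CPM, and clocka had 3.58 and 4.33 CPM against 7.59 and 7.48 CPM. Among 41 genes of heat shock, unfolded protein and amino acid stress 2 were higher (4.88%) and 5 lower (12.2%). The asparagine synthetase asns had 68.7 and 59.15 CPM against 92.5 and 92.2 CPM, and 54.9 to 102 CPM in the other intact libraries. It kept its call whichever library was left out. Of 30 immediate early genes 2 were higher (6.67%), and of 46 Hox genes 2 were higher (4.35%). Of 45 genes of glycolysis and hypoxia 2 were higher (4.44%) and 1 lower (2.22%). Nuclear genes of the respiratory chain gave 2 higher and 1 lower of 81, and mitochondrial ones 3 higher of 12 (25%), of which 0, 0, 0 and 1 held without gfi1aa-/- replicate 1, gfi1aa-/- replicate 2, WT replicate 1 and WT replicate 2. Histones had 3 higher of 30 (10%) and endoderm genes 2 higher of 13 (15.4%). Placode genes had 2 higher (9.09%) and 1 lower (4.55%) of 22. Genes of interferon, complement and antigen presentation had 2 higher (6.25%) and 1 lower (3.12%) of 32.

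Loss of gfi1aa could also be followed in 3 other backgrounds that share no library with the comparison of gfi1aa-/- and WT. In each of these pairs the 2 sides came from different crosses, so the cross cannot be told apart from the loss. The pairs were the loss on top of gfi1b-/- (gfi1aa/1b DM over gfi1b-/-), on top of gfi1ab-/- (gfi1aa/1ab DM over gfi1ab-/-) and on top of both (gfi1 TM over gfi1b/1ab DM). In this order, 482 (2.42%), 1171 (5.88%) and 209 (1.05%) genes were higher, and 448 (2.25%), 1641 (8.24%) and 181 (0.909%) were lower. Of the 1287 genes higher in gfi1aa-/- than in WT, 79 were also higher and 76 lower in gfi1aa/1b DM, which is 6.14% and 5.91% of them and 16.4% and 17% of the genes called there. In gfi1aa/1ab DM 153 were also higher and 218 lower, which is 11.9% and 16.9% of the 1287 and 13.1% and 13.3% of the genes called there. In gfi1 TM 38 were also higher and 24 lower, 2.95% and 1.86% of the 1287 and 18.2% and 13.3% of the genes called there. Of the 1126 lower genes, gfi1aa/1b DM had 90 that were also lower (7.99% of them, 20.1% of the genes lower there) and 53 higher. The count was 176 lower (15.6% and 10.7%) and 156 higher with gfi1aa/1ab DM, and 59 lower (5.24% and 32.6%) and 37 higher with gfi1 TM. The difference between the effect of gfi1aa loss in WT and in another background, tested in the same fit, passed the threshold for 1197 of the 2413 called genes against gfi1aa/1b DM (49.6%), 1228 against gfi1aa/1ab DM (50.9%) and 1131 against gfi1 TM (46.9%). Over all tested genes these shares were 9.34%, 11.1% and 7.34%. All 3 differences passed for 620 of the called genes (25.7%) and for 3.27% of all tested genes. The called genes were chosen for a large value of gfi1aa-/- over WT, which is one side of each difference, so the shares among called genes, and the counts by list given next, are descriptions and not independent evidence.

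The tissue lists were also counted in the other backgrounds. The values that follow take gfi1aa/1b DM, then the double mutant with gfi1ab-/-, then gfi1 TM, each over its own partner with gfi1aa intact. In this order 2.42%, 5.88% and 1.05% of all tested genes were higher, and 2.25%, 8.24% and 0.909% were lower. Counts of 1 lower gene in 46 or in 44 with gfi1aa/1b DM are close to these shares. For the sarcomere 1, 9 and 0 of the 46 genes were lower and 0, 1 and 1 higher, and the medians were -0.21, -0.07 and 0.12. The difference from the effect in WT passed for 1, 6 and 9 of the 13 called genes. For ionocytes 0, 3 and 0 of the 11 genes were higher, where gcm2, atp1b1b and foxi3a passed in gfi1aa/1ab DM with log2 fold changes of 0.64, 0.60 and 0.63. The difference passed for 2, 0 and 0 of the 4 called genes. For cholesterol and fatty acid synthesis 5, 1 and 1 of the 33 genes were lower and 0, 3 and 0 higher, with medians of -0.24, 0.09 and -0.08. Among the lower ones was cyp51 in gfi1aa/1b DM, with a log2 fold change of -1.60 beside 0.26 and -0.48 elsewhere, which did not pass. For plasma and yolk proteins 1, 2 and 0 of the 33 genes were higher and 0, 1 and 1 lower, with medians of 0.21, 0.13 and -0.18. The difference passed for 5, 6 and 8 of the 11 called genes. For mitosis 1, 6 and 0 of the 44 genes were lower. For the rest of the skin 8, 13 and 1 of the 34 genes were higher and 1, 2 and 1 lower, with medians of 0.18, 0.23 and 0.02. For collagens 5, 27 and 5 of the 48 genes were lower and 0, 1 and 2 higher, with medians of -0.06, -0.52 and -0.26. klf17 of the hatching gland was lower in 2 of the 3, gfi1aa/1b DM and gfi1 TM, with log2 fold changes of -0.53 and -0.45, beside -0.28 in gfi1aa/1ab DM, which did not pass.

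Only 10 higher and 16 lower genes passed in the same direction in all 4 comparisons. Of these 26, 5 are erythroid genes and 4 endothelial genes that the study names. The others were chosen after their values were seen. steap3, the iron reductase that works with the transferrin receptor in red cell precursors, had 0.153 and 0.260 CPM in gfi1aa-/- and 2.80 and 2.43 CPM in WT (log2 fold change -3.59 ± 0.62, adjusted p = 0.0015). All 8 libraries without gfi1aa had at most 0.389 CPM of steap3 and all 8 with gfi1aa intact at least 1.49 CPM. cpox, a late enzyme of heme synthesis, had 24.4 and 25.1 CPM against 39.1 and 43.0 CPM, and no library without gfi1aa was above 28.3 CPM, while none with it was below 33.8 CPM. blf, a zinc finger gene needed for globin expression in zebrafish, had 18.7 and 20.7 CPM against 27.8 and 31.5 CPM. It lost its call without gfi1aa-/- replicate 1 and without WT replicate 2. Genes with a wider use were on the list as well: insra, an insulin receptor, had 31.1 and 35.2 CPM against 58.0 and 57.0 CPM, and usp33, a ubiquitin protease, had 10.8 and 11.5 CPM against 25.1 and 24.5 CPM.

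Among the higher genes of the 26, scarf1, a scavenger receptor of endothelial cells, had 7.72 and 6.84 CPM in gfi1aa-/- and 3.25 and 4.05 CPM in WT, and log2 fold changes of 0.99, 1.0, 0.71 and 0.72 in the 4 comparisons. Other vessel genes passed in 2 of the 3 other backgrounds and were also chosen after their values were seen. mrc1a, a scavenger receptor of veins and lymphatics, had 4.96 and 5.15 CPM against 0.550 and 0.333 CPM. gpr182, a receptor of the endothelium, had 4.70 and 4.46 CPM against 2.30 and 1.81 CPM, and rasip1, needed for vessel lumens, had 7.52 and 5.80 CPM against 3.45 and 3.62 CPM. For scarf1 and rasip1 all 8 libraries without gfi1aa were above all 8 with it, whereas the ranges overlapped for mrc1a and gpr182.

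**Figure D4:**
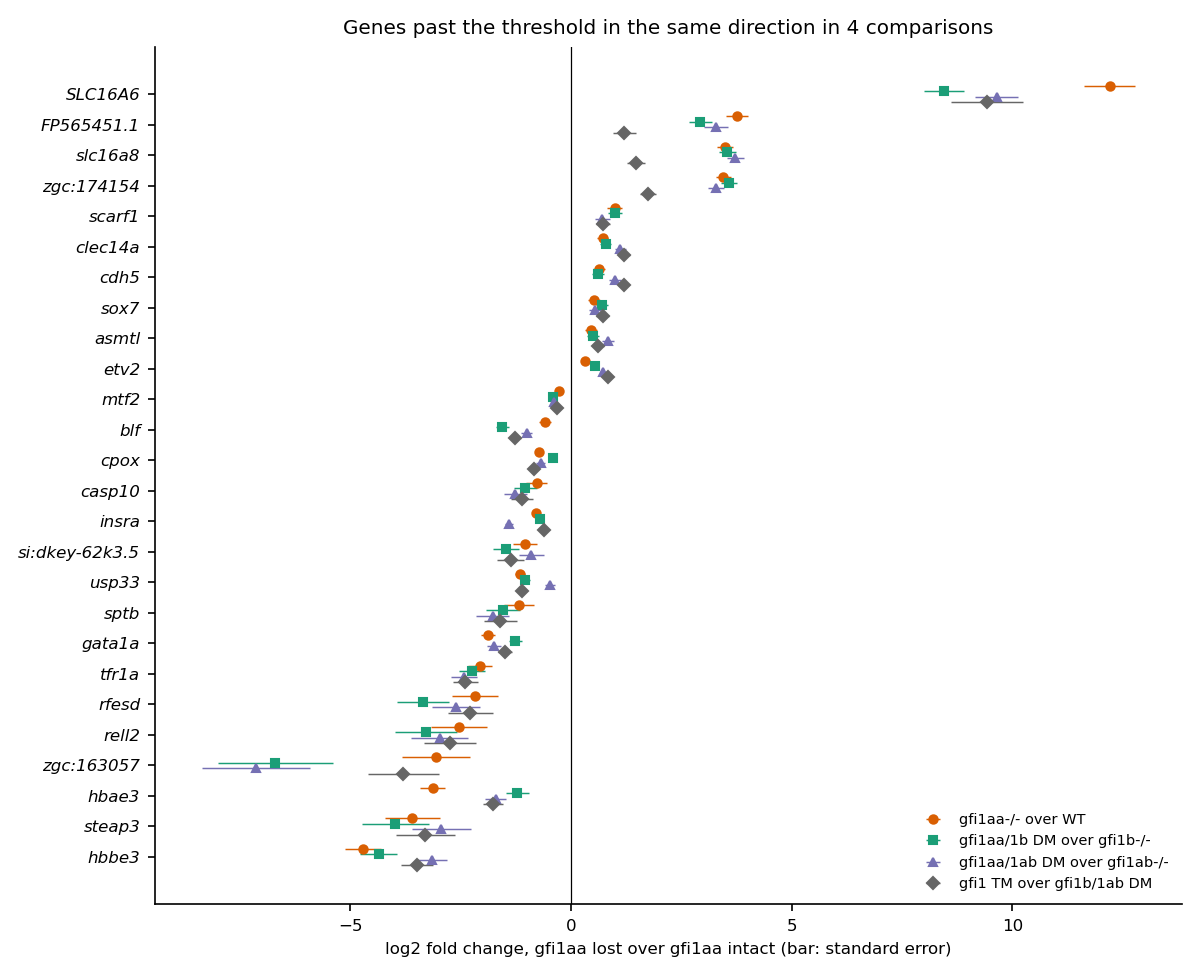
Log2 fold change on loss of gfi1aa, with its standard error, of the 26 genes that passed in the same direction in all 4 comparisons. Each symbol shape is 1 comparison, and values right of 0 are higher where gfi1aa was lost. steap3 lies between -3.98 and -2.93 in all 4, and slc16a8 at 3.5 in gfi1aa-/- over WT and at 1.47 in gfi1 TM over gfi1b/1ab DM.

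The largest changes of all fell on a pair of transporter genes. slc16a6a, a monocarboxylate transporter of chromosome 12 that exports ketone bodies from the zebrafish liver, had 0 counts in both gfi1aa-/- libraries and 99.2 and 106 CPM in WT, which makes it at least 726-fold lower against a floor of 3 counts per library. SLC16A6, a gene ID described in the files as a monocarboxylate transporter 7-like gene, had 29.9 and 31.3 CPM in gfi1aa-/- and 0 counts in both WT libraries, at least 209-fold higher against the same floor. The 2 names point to related sequences. Reads that map equally well to both were not counted, and other reads may be assigned to one copy or the other. Added up, the 2 came to 29.9 and 31.3 CPM in gfi1aa-/- and 99.2 and 106 CPM in WT, a far smaller fold than either alone. The sums were 51.8 and 56.9 CPM in gfi1aa/1b DM, 57.1 and 47.8 CPM in gfi1aa/1ab DM and 100.2 and 98.5 CPM in gfi1 TM. Over the series slc16a6a was between 99.2 and 117 CPM in the 8 libraries with gfi1aa intact, and SLC16A6 was at most 0.055 CPM there. In gfi1aa/1b DM slc16a6a had 31.6 and 36.5 CPM and SLC16A6 had 20.2 and 20.5 CPM. The gfi1aa/1ab DM libraries ranged from 15.6 to 38.4 CPM for slc16a6a and from 18.8 to 32.1 CPM for SLC16A6. In gfi1 TM slc16a6a had 94.6 and 95.2 CPM and SLC16A6 3.83 and 5.0 CPM, where SLC16A6 passed the test and slc16a6a did not.

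Other genes of chromosome 12 passed the test as well. Along the chromosomes of the assembly GRCz12tu, on which 16458 of the 19903 tested genes were placed, a block of 50 genes from acbd4 to neurl2, which lies 97 to 48 tested genes before slc16a6a, had 11 higher and 13 lower genes (48%), where the median over 327 such blocks was 10%. acbd4, an acyl-CoA binding gene, had 4.60 and 4.50 CPM in gfi1aa-/- and 0 and 0.238 CPM in WT. nmt1b, a myristoyl transferase, had 0.409 and 0.260 CPM against 4.05 and 3.48 CPM. acta2, the smooth muscle actin, had 6.44 and 7.79 CPM against 0.849 and 0.238 CPM. zgc:174154 had 123 and 140 CPM against 12.1 and 11.8 CPM, with 9.31 to 13.9 CPM in the other intact libraries. slc16a8, a lactate transporter between this block and slc16a6a, had 32.9 and 34.4 CPM against 2.85 and 3.10 CPM, and also passed in all 4 comparisons. Among the 100 tested genes nearest to slc16a6a, 19 passed (19%), against 16.2% on the rest of chromosome 12 and 10.6% on the other chromosomes. With 20 genes on each side the share was 17.5%, against 16.6% on the rest of the chromosome, and with 200 it was 17% against 15.9%. With 20 or 50 genes on each side the block from acbd4 to neurl2 counts wholly or almost wholly to the rest of the chromosome. With 200 it counts to the neighbours, so the 3 widths are not alike. The globin hbbe3 that the study names is among those neighbours. On chromosome 2, the 100 genes nearest to gfi1aa itself gave 8 calls (8%), and 10.8% of genes on other chromosomes were called. With any 1 of the 4 gfi1aa-/- and WT libraries left out, fewer genes passed over the whole genome. Shares of neighbours under those settings therefore cannot be set beside the shares given here.

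**Figure D5:**
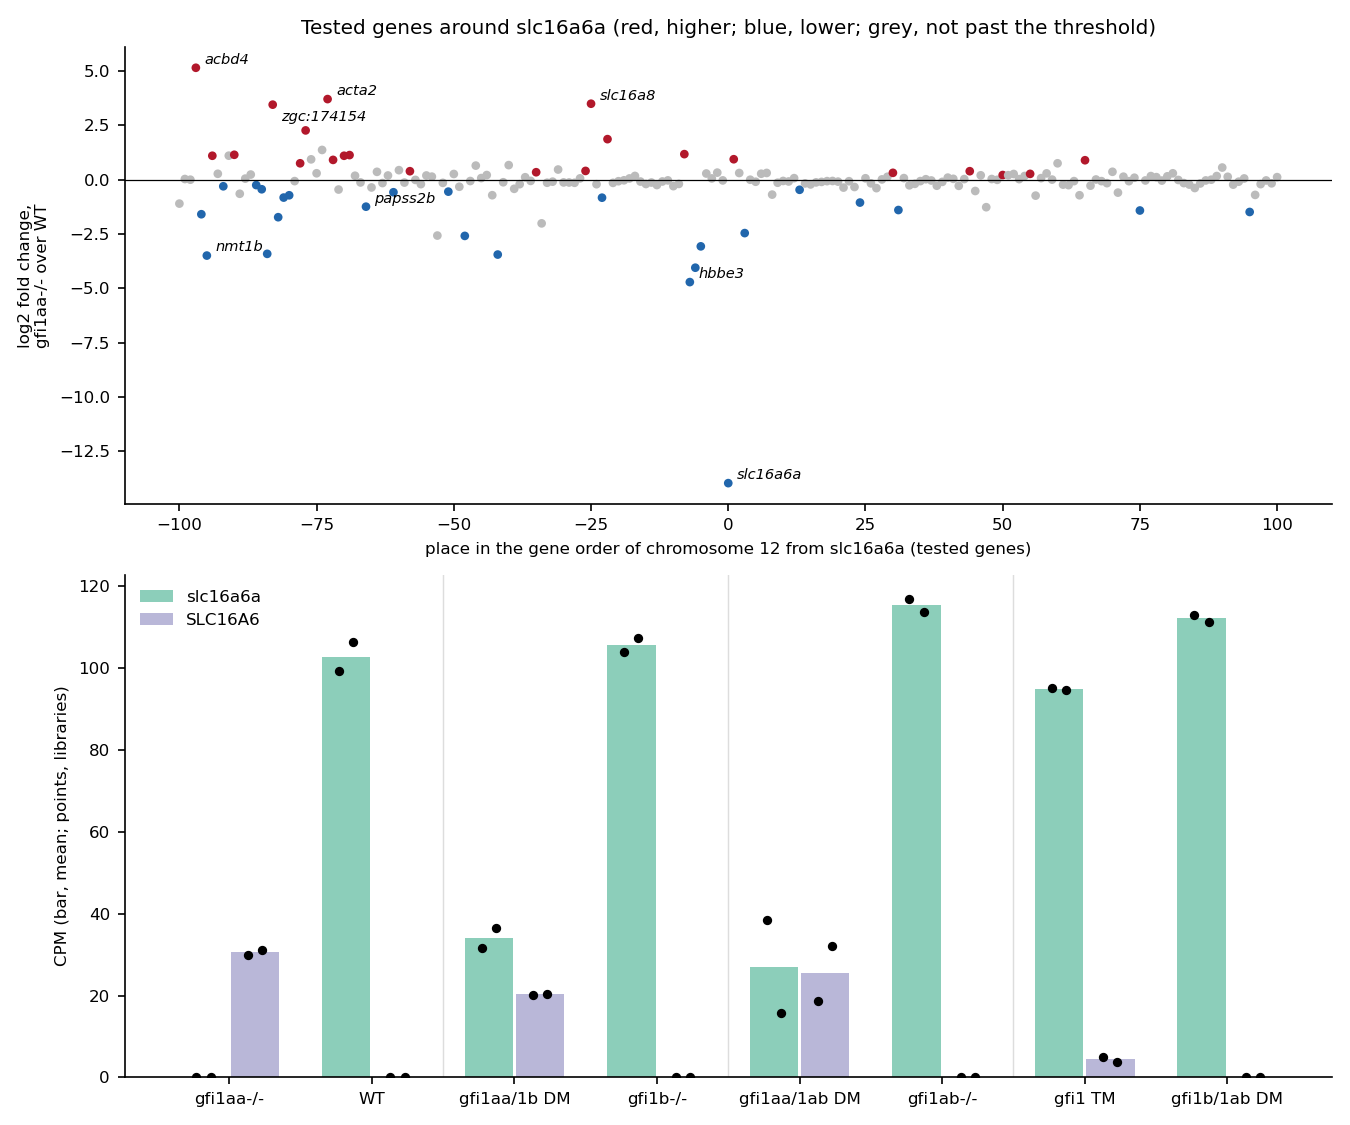
Upper panel, log2 fold change of gfi1aa-/- over WT of the tested genes around slc16a6a on chromosome 12, by their place in the gene order. Lower panel, level of slc16a6a (green) and SLC16A6 (purple) in CPM, with bars for means and points for libraries. slc16a6a is at 0 in both gfi1aa-/- libraries and at 99.2 and 106 CPM in WT, and SLC16A6 is above 0.055 CPM only in genotypes without gfi1aa.

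Zinc finger genes with znf names made up much of the extreme end. Of 310 tested, 65 were higher (21%) and 40 lower (12.9%). Their summed level hardly differed, with 5155 and 5125 CPM in gfi1aa-/- and 5140 and 5219 CPM in WT. Examples are znf977, with 10.6 and 11 CPM against 0.050 and 0.095 CPM, and znf1025, with 0 counts in both gfi1aa-/- libraries and 6.15 and 7.05 CPM in WT. The other intact libraries were at 4.39 to 9.40 CPM for znf977 (ENSDARG00000087070) and 0.045 to 3.07 CPM for znf1025, and in both genes the WT libraries lay beyond the other 14. These genes have many near copies, so reads could move between them, and 2 blocks of chromosome 4 that hold such genes had 70% and 38% of their genes called. The block with the most znf genes, 15 on chromosome 22, had 8% of its genes called, where the chromosome 4 blocks hold 12 and 6. With gfi1aa/1b DM 3 were higher and 6 lower, gfi1aa/1ab DM had 26 higher and 38 lower, and gfi1 TM had 2 higher and 1 lower. Leaving out gfi1aa-/- replicate 1, gfi1aa-/- replicate 2, WT replicate 1 or WT replicate 2 gave 47, 45, 42 and 44 higher and 32, 29, 37 and 32 lower.

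The remaining genes with the largest folds varied among other genotypes as well. A second gene ID of cardiac actin, actc1a (ENSDARG00000076126), had 0.614 and 0.693 CPM in gfi1aa-/- and 67.8 and 102 CPM in WT, but 0.975 to 284 CPM in the other intact libraries, and its call was lost without either gfi1aa-/- replicate. With the main copy added, actc1a came to 379.98 and 378 CPM in gfi1aa-/- and 510.5 and 529.6 CPM in WT. prkcq, a protein kinase C, had 22.9 and 22.9 CPM against 0.150 and 0.667 CPM, and 15.17 to 19.7 CPM in the other intact libraries. mylka, a myosin light chain kinase, had 16.7 and 16.6 CPM against 0.350 and 0.476 CPM, and rbp2b, a retinol binding protein, had 6.60 and 5.67 CPM against 0.1 and 0.048 CPM. In the other intact libraries mylka was at 3.55 to 14.1 CPM and rbp2b at 2.09 to 3.73 CPM, so for these 3 genes the WT libraries were the lowest of the series. col28a1a, a collagen chain, had 7.62 and 8.01 CPM against 0 and 0.048 CPM, and up to 13.9 CPM in the other intact libraries.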

How the data were processed

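Whole embryos of 8 genotypes were sequenced, with 2 libraries per genotype. The authors mapped reads to GRCz11 with STAR and deposited whole-number counts of reads per gene, not normalized, one file per library and a joint table with the same counts (16 of 16 libraries equal). Strand was not used, and multi-mapped reads were not counted, so levels added up over gene copies leave such reads out. The 4 lines of unassigned reads per library were left out, and 0 sample columns were unused.

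filterByExpr kept 19903 of 32520 genes. edgeR 4.0.16 in R 4.3.3 fitted 1 mean per genotype to all 16 libraries (TMM, quasi-likelihood test, common dispersion 0.00835, 8 residual degrees of freedom). p-values were adjusted by Benjamini-Hochberg over all tested genes. The SE is the size of the log2 fold change over the square root of F, CPM use TMM library sizes, and a gene with 0 counts in both libraries of a group gets a lower bound against 3 counts per library. DESeq2 1.42.0, other normalization, filters and sample choices were tried as alternatives. Scripts were tested on simulated data.

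Members and the 42 gene lists were chosen with earlier results of these data known. Genes named are the 12 largest fold changes in each direction among genes past the threshold with a gene name (the study's own erythroid and endothelial genes aside), at least 2 CPM and no overlap with WT, the same among genes beyond all 8 libraries with gfi1aa intact, up to 5 called members per list by adjusted p and members whose role is described, and the 3 gfi1 genes. Genes called in other backgrounds or placed near slc16a6a, and the tests of differences between backgrounds, were chosen after values were seen. Gene order came from RefSeq (GRCz12tu). The planned promoter motif search was not run. The precision shown is that of 2 libraries per group.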

Additional observations from a re-analysis of the deposited data

Results flagged for a closer look

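Of the 167 list genes past the threshold, 14 had an effect of gfi1aa loss in WT that differed from that in each of the 3 other backgrounds. The tests were edgeR interaction terms, with an adjusted p under 0.05 in all 3. The 14 leave out the 13 genes the study names, but the 167 hold them. The share was 8.38% of the 167, beside 620 of the 2413 genes called (25.7%) and 3.27% of all tested genes, where no gene was left out. All 3 differences contain the same values of gfi1aa-/- and WT, by which the genes were chosen, so the 3 are not independent of each other or of that choice. In pcdh8, tdrd6, crabp2b, btg1 and col5a2b both WT libraries lay beyond the other 14 libraries. The differences are given as the log2 fold change of gfi1aa-/- over WT minus that of gfi1 TM over gfi1b/1ab DM. For plasma genes they were 0.61 in apoc2, 1.99 in apobb.2, 3.91 in 1 of the gene IDs named apoa4b.2, 1.88 in fgb and 2.04 in c3b.1. For matrix genes they were 0.50 in col7a1 and 1.67 in col5a2b. They were 0.84 in eno3, a muscle enolase, and 0.38 in btg1, an antiproliferative gene. On the lower side the difference was -0.47 in pcdh8, -2.36 in tdrd6, -0.51 in asns, the asparagine synthetase, -0.30 in kif20a and -0.63 in crabp2b. In gfi1 TM over gfi1b/1ab DM itself the log2 fold changes were 0.25 in apoc2, -0.28 in fgb, 0.08 in col7a1, 0.01 in pcdh8 and 0.12 in crabp2b.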

How the results depend on the processing

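The 1287 higher and 1126 lower genes became 655 to 852 and 507 to 728 when any 1 of the 4 libraries was left out, where the lone library of its group is assumed to vary like those of the other genotypes. DESeq2 on the 4 libraries called 848 higher and 709 lower genes, and a minimum log2 fold change of 1 left 682 and 501. Against the mean of the 4 genotypes with gfi1aa intact 1565 and 1212 genes passed, of which 788 and 644 were among those called against WT. Replicate numbers did not pair the samples (correlation of deviations 0.003 between gfi1aa-/- and WT, -0.09 to 0.09 over 28 pairs of genotypes), and the replicate block gave 1228 higher and 1054 lower genes. Other normalization (1274 and 1133), DESeq2 on all libraries (985 and 855), edgeR on the 4 libraries (1452 and 1222) and no filter (1635 and 1484) stayed within 1.5 times. Signs turned for he1.2 (0.11), btg1 (-0.0033) and gfi1b (-0.30) against the intact genotypes. With 1 library left out they turned for gfi1ab (-0.23 to 0.16, positive without gfi1aa-/- replicate 2 or WT replicate 2), gfi1b (-0.029 to 0.40, negative without WT replicate 2) and he1.1 (-0.16 to 0.046, positive without gfi1aa-/- replicate 1 or WT replicate 1). With 20 or 200 genes on each side of gfi1aa, 7.5% and 7.69% of neighbours were called.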
